A study of Oryza sativa Japonica Group with 8 samples.

Results

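Short loci are transcribed regions of fewer than 300 bp, taken from the positions in the deposited table as end minus start plus 1. Of 41805 loci in all, 3681 (8.81%) met this rule, with 1782 on plus and 1899 on minus, and no measured value entered the choice. Transcript levels came from strand-specific, single-end sequencing of polyadenylated RNA from greenhouse-grown japonica rice (Oryza sativa). The 8 groups, with 1 library each, were flower buds, flowers on their opening day, flag leaves from before flowering (early leaves here) and from after it (late leaves), roots from before flowering (early roots), a library labelled as roots from after flowering (the library labelled late roots), milk grains, which still hold fluid, and mature seeds. The labels name no genotype contrast and no treatment, and each leaf or root library pooled several stages of its period. As every group has a single library, differences have no replicate check, and neither tests nor p-values are given.

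A locus in such a table is a stretch of genome in which an assembler joined overlapping reads. Short polyadenylated products in plants include messages for small peptides, antisense RNAs, precursors of miRNAs, and pieces of longer transcripts such as retained introns. FPKM divides the reads of a locus by its length and by the mapped reads of the library, and most programs replace the length by an effective length, the number of places where a fragment could start. That number becomes very small once a transcript is shorter than a usual fragment, so a few reads can then give a very large FPKM. No gene names come with these loci, so each is given by identifier and position on Release 7 of the MSU rice annotation. Which of them fall in exons, introns or UTRs was not analysed here.

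The library labelled late roots goes against its label. Over the 38124 loci of at least 300 bp it correlated at 0.97 (Spearman) with late leaves and at 0.68 with early roots. Over the 3681 short loci the same correlations were 0.85 and 0.37. These are correlations across loci, which are not independent replicates. Read totals are not given, so depth was inferred here from the FPKM worth of 1 read at the shortest loci. Depth means this inferred measure throughout, and it would also hold any scaling between libraries in the authors' processing. By this measure that library was also the deepest, at 7.68 times the depth of mature seeds, where the other 7 libraries lay between 1 and 2.82 times. The FPKM share, detection, organ enrichment, the library of the highest value and the profile comparisons are given with and without it, and the comparison of the libraries labelled roots cannot be made without it.

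The short loci ran up to 299 bp with a median of 220 bp, while longer loci had a median of 2517 bp. The shortest length in the table, 1 bp more than the sequencing cycles of a read, was shared by 43 loci. Short loci made up between 7.64% (chromosome 7) and 10.6% (chromosome 9) of the loci of a chromosome. At the edge of the rule, 25 loci had 299 bp and 21 had 300 bp. The highest of those at 299 bp, M_XLOC_039180 on chromosome 9 (3062768 to 3063066, minus strand), lay between 1.97 FPKM in flowers and 93.2 FPKM in the library labelled late roots. The highest of those at 300 bp, M_XLOC_023474 on chromosome 4 (13086735 to 13087034, minus strand), lay between 0.779 FPKM in early roots and 498 FPKM in late leaves.

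How much 1 read was worth depended steeply on length. At the shortest length, 212 of 212 values differed by less than 0.03 from a whole number of smallest steps, each taken as the value of 1 read in its library and strand. On the plus strand that step was 863 FPKM in the library labelled late roots, 2362 in late leaves, 2622 in flower buds, 2794 in flowers, 3291 in early leaves, 3459 in milk grains, 4070 in early roots and 6723 FPKM in mature seeds. A plus-strand locus of that length in mature seeds could therefore hold 0 FPKM or at least 6723 FPKM, and nothing in between.

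The step shrank with each added base. Relative to the shortest length it was 0.597 at 102 bp, 0.396 at 103 bp, 0.281 at 104 bp, 0.210 at 105 bp and 0.162 at 106 bp, so 5 more bases lowered the value of 1 read 6.16-fold. From 107 bp on, values were no longer whole multiples of a shared step, and 18 of 67 were whole at 107 bp. Beyond that length only the lowest values above 0 can be followed. At 290 to 299 bp their median was 8.91e-05 of the step at the shortest length in the same library and strand, or 11218-fold lower, where the lengths themselves differ 2.96-fold up to 299 bp. Whether those lowest values are 1 read each cannot be read from the file.

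**Figure D1:**
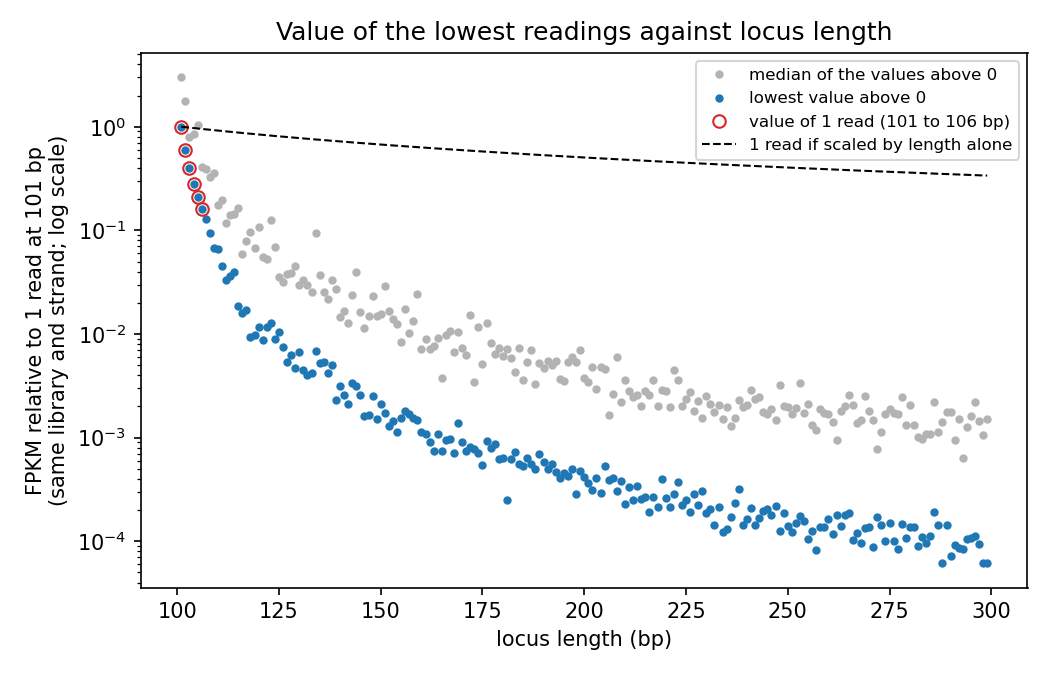
Lowest value above 0 (blue), median of the values above 0 (grey) and value of 1 read (red circles, up to 106 bp) at each locus length in bp, as FPKM relative to 1 read at the shortest length in the same library and strand, on a log scale, pooled over 8 libraries. The dashed line scales 1 read by length alone. The value of 1 read falls to 0.162 by 106 bp, and the lowest values reach a median of 8.91e-05 at 290 to 299 bp.

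Short loci held a large part of each library's FPKM sum. The share was 27.4% in milk grains, 29.0% in flower buds, 32.8% in flowers, 36.5% in mature seeds, 37.9% in early leaves, 43.2% in late leaves, 43.8% in early roots and 49.7% in the library labelled late roots. The median over the 8 libraries was 37.2%, and 36.5% without the library labelled late roots. Among the 100 highest loci of a library, between 36 in mature seeds and 68 in the library labelled late roots were short.

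The shortest members carried most of that sum in 5 of the libraries. The 120 loci of up to 106 bp held between 11.3% (flower buds) and 31.7% of the FPKM sum, the latter in the library labelled late roots. The 570 loci of 107 to 149 bp held 4.56% to 7.03% of a library's sum, the 757 of 150 to 199 bp 1.48% to 5.21%, the 1060 of 200 to 249 bp 1.09% to 2.89% and the 1174 of 250 to 299 bp 3.65% to 11.7%. Without the loci of up to 106 bp, the median share of all short loci over the libraries was 16.9%.

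**Figure D2:**
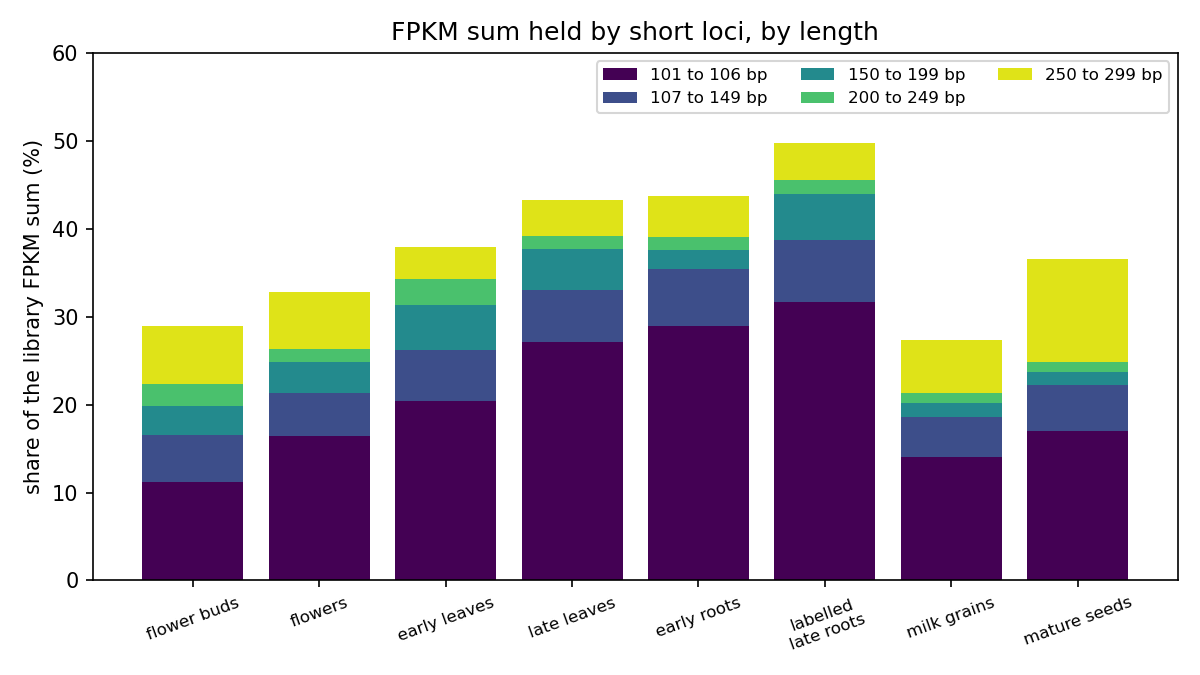
Share of each library's FPKM sum (%) held by loci under 300 bp, stacked by length class, for the 8 libraries. The lowest block, loci of up to 106 bp, runs from 11.3% in flower buds to 31.7% in the library labelled late roots.

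The whole steps up to 106 bp let the reads behind these values be counted. Of 603 values above 0 at the 120 loci, 601 lay within 0.03 of a whole number of reads. The 120 loci together held 173 reads in flower buds (95% exact Poisson interval 148 to 201, counting error only), 214 in flowers, 215 in mature seeds, 216 in milk grains, 360 in early leaves, 457 in early roots, 655 in late leaves and 2344 in the library labelled late roots (2250.1 to 2441). In mature seeds, 215 reads thus stood for 17.0% of the FPKM sum, at 4184 FPKM for each read on average.

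Most single values among these 120 loci rested on very few reads. Of 960 values, 357 were 0, 170 were 1 read and 324 were 1 to 3 reads, while 157 were 10 reads or more. A locus without a read was seen in 3.33% of cases in the library labelled late roots and in 69.2% in mature seeds, the deepest and the shallowest library. Of the 120 loci, 116 reached 10 reads in at least 1 library, and the largest count was 224. As loci were assembled from reads, such a count in some library may be needed for a locus to be listed. The deepest library could then list more loci that are highest in it, also after division by depth. Neither was tested. By reads, 93 loci had their highest count in the library labelled late roots, and after division by relative depth 54 did. By reads per depth, 18 were highest in early roots, 14 in early leaves, 13 in late leaves, 11 in mature seeds, 6 in milk grains, 2 in flowers and 2 in flower buds.

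**Figure D3:**
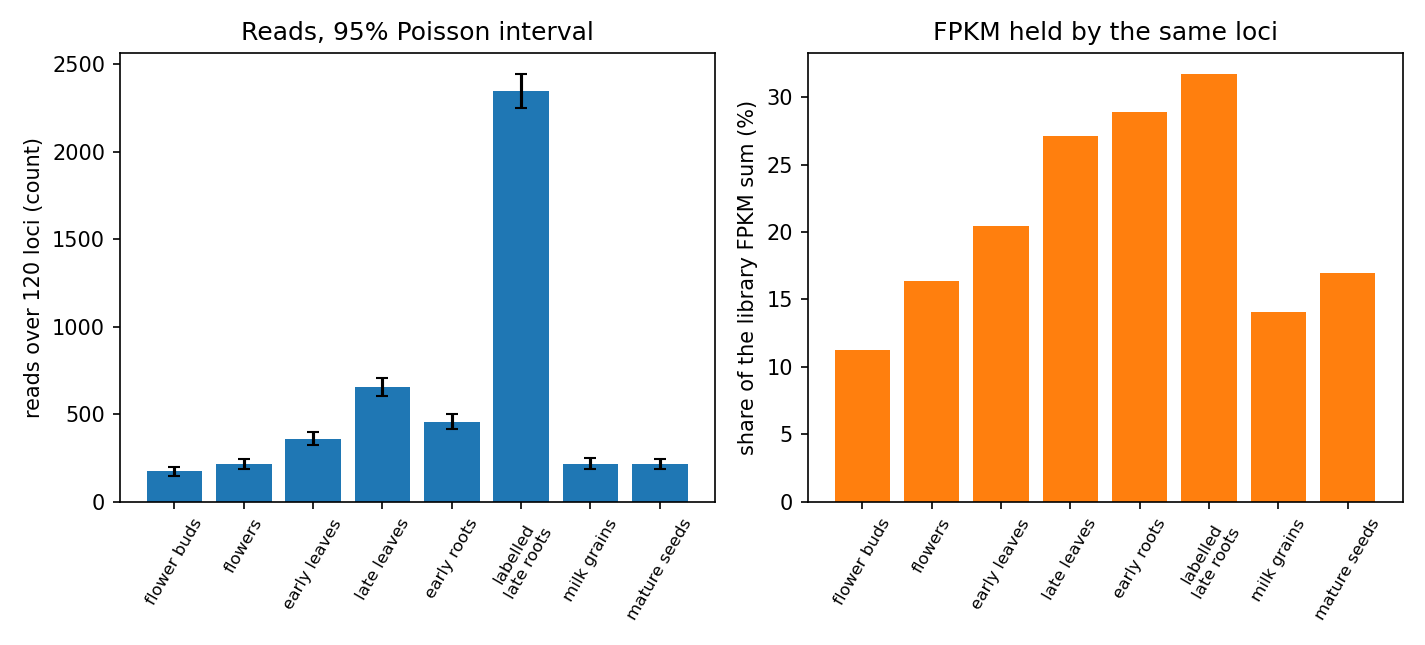
Left, reads summed over the 120 loci of up to 106 bp in each library, with 95% exact Poisson intervals. Right, share of the library's FPKM sum (%) held by the same loci. Mature seeds have 215 reads and 17.0% of the sum, and flowers have 214 reads and 16.4%.

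Short loci lay mostly inside longer ones. Of the 3681, 2928 (79.5%) overlapped a locus of at least 300 bp by 1 bp or more. In 2317 (62.9%) the longer locus was on the same strand, and the short locus then lay wholly within it in 2317 of 2317 cases. As an assembler joins overlapping reads into 1 locus, this full containment may follow from how loci are made, which was not tested. A further 611 (16.6%) overlapped a longer locus on the opposite strand only, and 753 (20.5%) overlapped none. The share with a longer locus around it on the same strand, called its host here, was 92.5% up to 106 bp, 78.1% at 107 to 149 bp, 74.8% at 150 to 199 bp, 57.7% at 200 to 249 bp and 49.7% at 250 to 299 bp. Overlap with the opposite strand was 6.67%, 18.4%, 14.7%, 21.9% and 23.7% in these length classes, lowest up to 106 bp and with no steady rise.

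The 2317 nested loci lay in 1775 hosts, of which 378 held more than 1. Hosts were long and abundant, with a median length of 5337 bp and a median of 33.0 FPKM (mean over libraries), against 2517 bp and 7.93 FPKM for all loci of at least 300 bp. Counted from the 5′ end of the host, 463 midpoints fell in the first 20% of its length, 615 in the next, then 536, then 467, and 236 (10.2%) in the last. Nested loci held 23.9% of the FPKM sum in milk grains and 47.9% in the library labelled late roots. Those with only an opposite-strand partner held 0.710% to 2.88%, and free-standing loci 0.418% to 6.54%.

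Nested loci tended to share the organ profile of their host. Over the 8 libraries, the log2(FPKM + 1) values of a nested locus and its host had a median Pearson r of 0.65 (quartiles 0.30 and 0.83) over 2317 pairs. The same loci and the nearest other longer locus on their strand had a median of 0.32. For the 611 loci with only an opposite-strand partner, the median was 0.45 with that partner and 0.36 with the nearest longer locus on their own strand. With the library labelled late roots left out, these medians were 0.65, 0.30, 0.41 and 0.35, in the same order. These are descriptions over libraries that differ in depth, and the reads at a nested locus may also count towards its host. The nearest other loci were also less abundant, at a median of 8.50 FPKM (mean over libraries) against 35.3 for hosts over these pairs. For loci with only an opposite-strand partner, the nearest loci had 6.01 FPKM against 28.9 for the partners. The part of level in r was not tested. The nested locus and the host had their highest value in the same library in 44.3% of pairs, against 28.6% for the nearest other locus, and in 50.6% and 31.9% without the library labelled late roots. The mean FPKM was above that of the host in 767 pairs (33.1%).

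**Figure D4:**
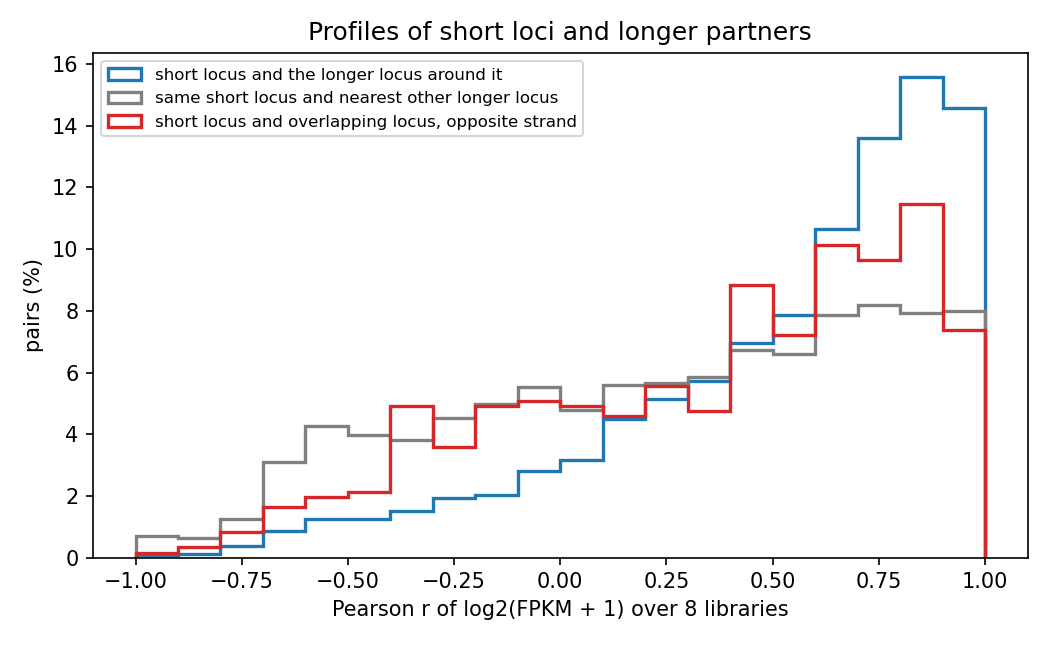
Distribution of Pearson r between the log2(FPKM + 1) profiles of short loci and longer loci over 8 libraries, as a percentage of pairs. Blue, nested short locus and its host (median 0.65). Grey, the same short loci and the nearest other longer locus on their strand (median 0.32). Red, short loci and an overlapping locus on the opposite strand (median 0.45).

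The highest short locus was P_XLOC_017791, 298 bp on the plus strand of chromosome 3 (4117574 to 4117871). It was abundant in every library. It stood at 77931 FPKM in early roots, 95894 in early leaves, 119046 in late leaves, 119364 in flower buds, 120675 in the library labelled late roots, 122684 in flowers, 178459 in milk grains and 496484 in mature seeds. It made up 9.36% of the FPKM sum of mature seeds and 1.96% of that of early roots, where it was number 5 by FPKM. Its host, P_XLOC_017790 (4100014 to 4119922, 19909 bp), lay between 1306 FPKM in the library labelled late roots and 4389 in mature seeds. Without this locus the median share of the short loci was 31.1%.

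The next locus, M_XLOC_009706 on chromosome 11 (19590742 to 19590843, minus strand, 102 bp), was highest in early roots. Its values were 6729 FPKM in flower buds, 8889 in milk grains, 10882 in flowers, 21644 in late leaves, 29723 in the library labelled late roots, 30293 in early leaves, 38924 in mature seeds and 286077 in early roots. In reads these were 4, 4, 6, 14, 52, 14, 9 and 108, in the same order. The root count of 108 had an exact Poisson interval of 88.6 to 130, and corresponds to 66.1 reads at the depth of mature seeds, where the other libraries gave 9.0 or fewer. Its host, M_XLOC_009704 (19588843 to 19596476), was also highest in the same library, at 3571 FPKM against 107 to 815 elsewhere.

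The highest locus of the shortest length, P_XLOC_030453 on chromosome 6 (17839053 to 17839153, plus strand), came next. It had 0 reads in early roots and 3 reads in flower buds (7870 FPKM). The exact Poisson interval of 0 reads runs up to 3.69 reads, and 3 reads in early roots would be 12209 FPKM. The locus had 8 reads in milk grains (27676 FPKM), 13 in early leaves (42783), 21 in flowers (58667), 23 in late leaves (54337), 23 in mature seeds (154619) and 66 in the library labelled late roots (56978). The same count of 23 reads thus gave 54337 FPKM in late leaves and 154619 in mature seeds. Its host P_XLOC_030450 (17836886 to 17840941) was also highest in mature seeds, at 2265 FPKM, and lowest in early roots, at 170 FPKM. In between the order differed, as the host stood at 241 FPKM in late leaves and 299 in flower buds. The r of the pair over the 8 libraries was 0.56.

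Of the other 5 leading loci, 4 were nested, with an r of 0.92 to 0.97 with their hosts over the 8 libraries, and 1 was free-standing. M_XLOC_009382 on chromosome 11 (15959312 to 15959495, minus strand, 184 bp) stood at 120541 FPKM in early leaves, 93668 in the library labelled late roots, 50221 in late leaves, 42652 in flowers, 31867 in flower buds and 198 in milk grains, and was listed at 0 in early roots and mature seeds. Its host M_XLOC_009381 was at 3199 FPKM in early leaves and 2.0 in early roots. M_XLOC_028729 on chromosome 5 (27180809 to 27180909, minus strand) was more even, with 3 reads in flower buds (8456 FPKM) and 59 in the library labelled late roots (56501 FPKM). At the depth of mature seeds its counts lay between 1.17 in flower buds and 7.80 reads in the library labelled late roots.

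A pair of leaf loci followed hosts that were themselves abundant in leaves. M_XLOC_039982 on chromosome 9 (11602649 to 11602749, minus strand) had 6 reads in early leaves (21752 FPKM), 35 in late leaves (90657) and 57 in the library labelled late roots (54598), and 0 in the other 5 libraries. P_XLOC_004294 on chromosome 1 (42963278 to 42963378, plus strand) had 14 reads in early leaves (46073 FPKM), 23 in late leaves (54337), 73 in the library labelled late roots (63021) and 0 in the other 5. A count of 0 reads has an exact Poisson interval of up to 3.69 reads, and 3 reads at these loci are up to 21738 FPKM in mature seeds. The host of the first, M_XLOC_039980, stood at 318 to 941 FPKM in those 3 libraries and at 10.7 or less elsewhere, and the host of the other, P_XLOC_004291, at 674 to 2211 FPKM and at 15.3 or less.

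M_XLOC_010478 on chromosome 11 (28580475 to 28580576, minus strand, 102 bp) was the free-standing locus and was highest in seeds. It had 10 reads in milk grains (22224 FPKM), 42 in mature seeds (181650 FPKM), 1 in the library labelled late roots (572 FPKM) and 0 in the other 5 libraries. The nearest longer locus on its strand, M_XLOC_010477, lay 373 bp downstream and was also highest in seeds. It stood at 130 FPKM in milk grains, 403 in mature seeds and 2.12 or less elsewhere.

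Across all short loci, the share at 0 was lowest in the deepest library and highest in the shallowest, and the part of depth in it was not tested. In mature seeds, the shallowest library, 50.5% of short loci were at 0, against 14.6% in the library labelled late roots, and the other libraries lay between 23.3% and 40.8%. For longer loci the shares at 0 were 9.97% to 19.2%. At 1 FPKM or more in all 8 libraries were 779 short loci (21.2%) and 16877 longer loci (44.3%). Without the library labelled late roots, 793 short loci reached 1 FPKM in the remaining 7.

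The library of the highest value also differed by length. Of the short loci, 936 (25.4%) had their highest FPKM in the library labelled late roots, against 8.46% of longer loci. For the other libraries the shares of short and longer loci were 7.53% and 12.6% in flower buds, 4.35% and 6.72% in flowers, 10.7% and 11.1% in early leaves, 9.78% and 8.56% in late leaves, 12.9% and 17.7% in early roots, 8.99% and 13.0% in milk grains, and 20.3% and 21.8% in mature seeds. Leaving out the library labelled late roots, 20.1% of short and 13.5% of longer loci above 0 were highest in late leaves, 16.9% and 12.9% in early leaves, and 22.7% and 22.3% in mature seeds. Among short loci of at least 107 bp, 24.7% were highest in the library labelled late roots. That library was 7.68 times as deep as mature seeds, and the part of depth in this count was not tested.

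**Figure D5:**
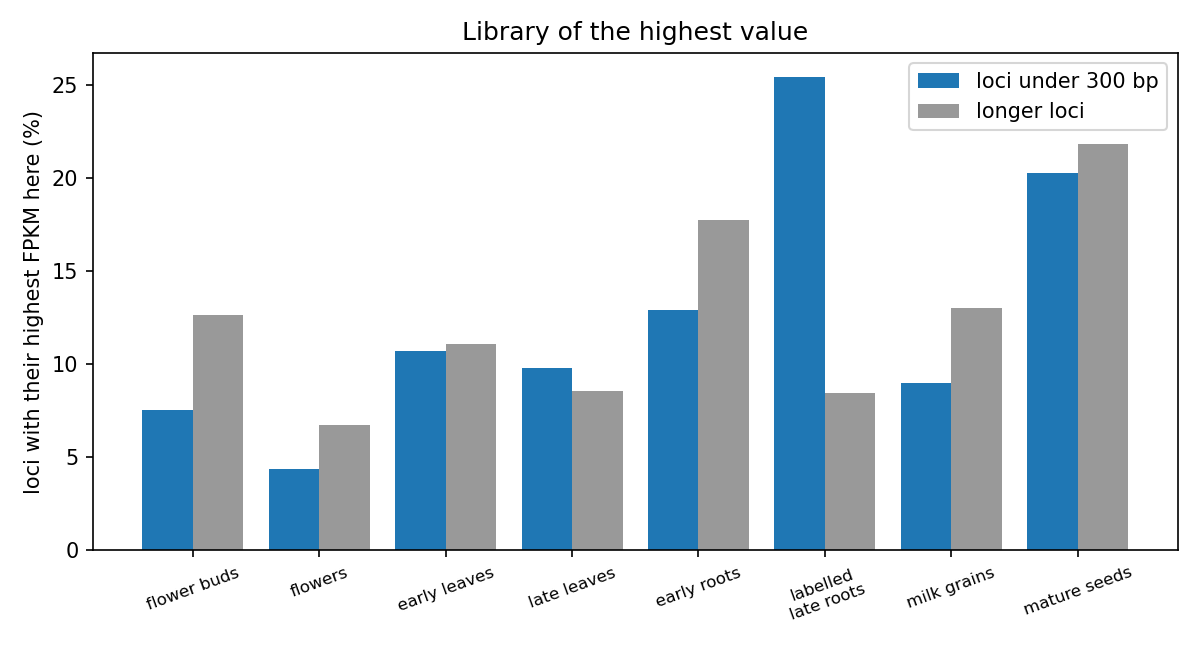
Percentage of loci under 300 bp (blue) and of longer loci (grey) whose highest FPKM lay in each of the 8 libraries. The bars differ most at the library labelled late roots, with 25.4% of short and 8.46% of longer loci.

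In whole organs, a smaller share of cells of a type and less RNA per cell cannot be told apart. Few short loci were enriched in an organ, meaning that the lowest FPKM + 1 of its libraries was at least 4-fold above the highest in every other organ, and at least 1 FPKM. With all 8 libraries, 64 short loci (1.74%) were enriched in inflorescences, against 1.78% of all loci. In seeds there were 39 (1.06%), against 1.26%. In flag leaves there were 2 (0.0543%), of 5 among all loci (0.012%). In roots there were 7 (0.190%), of 8 among all loci (0.0191%). Without the library labelled late roots, the counts were 68 for inflorescences (all loci 1.8%), 204 for roots (5.54%, all loci 5.59%) and 40 for seeds (all loci 1.27%), and the share in flag leaves was 2.74% of short loci (all loci 1.18%). Apart from flag leaves in that second count, these shares were near those of all loci or rested on fewer than 10 loci.

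The place of organ-enriched short loci is given beside that of all short loci, of which 62.9% were nested, 16.6% overlapped the opposite strand only and 20.5% were free-standing. Of the 64 inflorescence loci, 15 were nested, 7 opposite-strand and 42 free-standing. Of the 39 seed loci, 14 were nested, 6 opposite-strand and 19 free-standing. Without the library labelled late roots, the flag leaf loci held 84 nested, 10 opposite-strand and 7 free-standing ones, and the 204 root loci 126, 27 and 51. No difference between organs was tested. The host was itself enriched in the organ for 3 of 15 nested inflorescence loci, 7 of 14 nested seed loci, 36 of 84 nested leaf loci and 63 of 126 nested root loci, the last pair without the library labelled late roots.

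The highest inflorescence-enriched short locus was M_XLOC_025602 on chromosome 4 (34104678 to 34104884, minus strand, 207 bp), which was free-standing. Flower buds held 7110 FPKM of it and flowers 4328, and it was at 14.1 or less in every other library. The nearest longer locus on its strand, M_XLOC_025603, lay 1754 bp upstream and stood at 2327 FPKM in flower buds, 652 in flowers and 17.7 or less elsewhere. The second, M_XLOC_012903 on chromosome 12 (23559752 to 23559923, minus strand, 172 bp), had 5117 FPKM in flower buds, 1298 in flowers and 205 in milk grains, the next highest, with its host M_XLOC_012898 at 89.2 and 40.6 FPKM in flower buds and flowers.

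Of the seed-enriched short loci, the highest was M_XLOC_010478, described above. The second, M_XLOC_035973 on chromosome 8 (234133 to 234423, minus strand, 291 bp), stood at 81099 FPKM in mature seeds, 771 in milk grains and 70.3 in early leaves. It was at 25.9 FPKM or less in the other 5 libraries and listed at 0 in early roots. It overlapped P_XLOC_035457 on the opposite strand (233947 to 234529, plus strand, 583 bp), which had 0.188 FPKM in milk grains, 122 FPKM in mature seeds and was listed at 0 in the other 6. Here the short locus was by far the more abundant of the pair.

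The leaf-enriched and root-enriched short loci found with all 8 libraries were weak. P_XLOC_001114 on chromosome 1 (11202676 to 11202831, plus strand, 156 bp) stood at 216 FPKM in early leaves, 166 in late leaves and 36.4 in flowers. Its opposite-strand partner, M_XLOC_001965, was at 25063 and 14175 FPKM in the leaf libraries. M_XLOC_023592 on chromosome 4 (14345210 to 14345340, minus strand, 131 bp) stood at 105 and 28.4 FPKM in early and late leaves and was listed at 0 elsewhere. P_XLOC_018575 on chromosome 3 (11600594 to 11600707, plus strand, 114 bp) stood at 342 FPKM in early roots and 355 in the library labelled late roots, and M_XLOC_024830 on chromosome 4 (26756168 to 26756293, minus strand, 126 bp) at 609 and 29.2 FPKM. Both were listed at 0 in the other 6 libraries.

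Without the library labelled late roots, the leading root-enriched short loci were M_XLOC_009706, described above, and M_XLOC_038357 on chromosome 8 (26122627 to 26122727, minus strand). M_XLOC_038357 had 25 reads in early roots (110948 FPKM, exact Poisson interval 16.2 to 36.9 reads), 2 in flower buds, 2 in milk grains, 1 in flowers and 0 in the other 4 libraries, the library labelled late roots among them. The leading leaf-enriched ones were M_XLOC_039982 and P_XLOC_004294, also described above.

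Short loci were counted as different between stages when FPKM + 1 differed at least 4-fold, among loci at 1 FPKM or more in either library. From flower buds to flowers, 273 of 2734 short loci (9.99%) stood higher, where all loci gave 3.08%, and 329 (12.0%) stood lower, where all loci gave 3.61%. In flag leaves, 392 of 2929 (13.4%) were higher after flowering and 280 (9.56%) lower, against 4.89% and 3.54%. In the library labelled late roots, 1145 of 3208 (35.7%) were higher than in early roots and 401 (12.5%) lower, against 13.5% and 16.5%. In mature seeds, 729 of 2630 (27.7%) were higher than in milk grains and 734 (27.9%) lower, against 11.5% and 17.4%.

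Many of these differences were between 0 and a value. A 0 in the lower library stood behind 66.8% of the called short loci in flower buds and flowers, 56.5% in leaves, 63.5% in the libraries labelled roots and 64.3% in seeds. For longer loci the corresponding shares were 13.1%, 6.80%, 16.0% and 16.8%. Among loci above 0 in both libraries, the counts of higher and lower short loci were 94 and 106 in flowers, 149 and 143 in late leaves, 299 and 265 in the library labelled late roots, and 436 and 87 in mature seeds. Of the called loci of up to 106 bp, 33 of 40 in flowers, 25 of 42 in leaves, 6 of 84 in the libraries labelled roots and 40 of 58 in seeds had at most 3 reads in the higher library. In seeds, 1 read at the shortest length on the plus strand was worth 3459 FPKM in milk grains but 6723 FPKM in mature seeds.

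The hosts of nested loci called in a stage comparison were called the same way more often than longer loci at large, though in 7 of the 8 counts for fewer than 50% of the nested loci. In flowers, the host was called the same way for 14 of 185 higher (7.57%) and 10 of 217 lower nested loci (4.61%), where 2.44% and 2.83% of longer loci were called. In late leaves it was for 59 of 249 higher (23.7%) and 34 of 199 lower ones (17.1%), where longer loci gave 3.95% and 2.88%. In mature seeds it was for 95 of 518 (18.3%) and 143 of 498 (28.7%), where longer loci gave 10.1% and 16.5%. In the library labelled late roots it was for 256 of 843 higher (30.4%) and 140 of 232 lower ones (60.3%), where longer loci gave 11.1% and 16.9%. The difference from longer loci was not tested, and reads of a nested locus may also count towards its host. The shares of longer loci are over those at 1 FPKM or more in either library. Hosts were more abundant than all longer loci, at medians of 33.0 and 7.93 FPKM, and counted once per nested locus. The part of level in these shares was not tested. The host was called the other way for 11 or fewer in each of these 8 counts.

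Ratios of single loci were taken only where neither library was at 0 and the higher value reached 100 FPKM. From flower buds to flowers, M_XLOC_004533 on chromosome 1 (38509857 to 38510120, minus strand, 264 bp) went from 4.54 to 2314 FPKM, a log2 ratio of 8.71, and lay between 250 and 1349 FPKM in the other 6 libraries, so flower buds stood apart from the rest. P_XLOC_038850 on chromosome 9 (5113330 to 5113604, plus strand, 275 bp) went from 0.439 to 329 FPKM and reached 3790 FPKM in late leaves. M_XLOC_019409 on chromosome 3 (11904628 to 11904829, minus strand, 202 bp) went from 15970 to 29.1 FPKM, a log2 ratio of -9.05, while its host M_XLOC_019407 stood at 108 and 100.1 FPKM. P_XLOC_010034 on chromosome 11 (28498533 to 28498816, plus strand, 284 bp) went from 2068 to 8.44 FPKM, with its host at 57.3 and 64.4 FPKM.

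In flag leaves, P_XLOC_003893 on chromosome 1 (39081021 to 39081290, plus strand, 270 bp) stood at 3.95 FPKM before and 1169 after flowering, a log2 ratio of 7.88, and at 2535 FPKM in the library labelled late roots. Its host P_XLOC_003890 was at 8.38 and 41.0 FPKM in the leaf libraries. P_XLOC_038443 on chromosome 9 (416632 to 416866, plus strand, 235 bp) stood at 3.79 and 741 FPKM, with its host at 20.4 and 25.8 FPKM. P_XLOC_027342 on chromosome 5 (21738597 to 21738812, plus strand, 216 bp) stood at 7499 FPKM before and 11.8 after flowering, a log2 ratio of -9.20. It stood at 4720 FPKM in the library labelled late roots, so the low level of late leaves was not seen there, and at 13445 FPKM in mature seeds. M_XLOC_006996 on chromosome 10 (17687364 to 17687632, minus strand, 269 bp) stood at 108 and 1.07 FPKM, and its host M_XLOC_006994 moved with it, from 60.3 to 2.14 FPKM.

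Against early roots, the library labelled late roots was higher at P_XLOC_030072 on chromosome 6 (13949967 to 13950093, plus strand, 127 bp), with 27318 against 76.3 FPKM. That locus lay at 10023 FPKM or more in each of the other 6 libraries, so early roots stood apart. M_XLOC_039621 on chromosome 9 (7775314 to 7775565, minus strand, 252 bp) stood at 585 against 2.15 FPKM and at 983 FPKM in late leaves, and its host M_XLOC_039620 at 1294 against 9.71 FPKM. The 2 lowest ratios, at M_XLOC_019241 (10081245 to 10081529, 285 bp) and M_XLOC_019240 (10081011 to 10081151, 141 bp) on the minus strand of chromosome 3, share the host M_XLOC_019239 (10080173 to 10083451). They stood at 23850 and 7507 FPKM in early roots and at 4.41 and 10.4 FPKM in the library labelled late roots. The host stood at 2606 and 35.3 FPKM, and at 58.1 FPKM or less in the other libraries.

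In seeds, P_XLOC_010807 on chromosome 12 (3883994 to 3884275, plus strand, 282 bp) stood at 1.45 FPKM in milk grains and 783 in mature seeds, a log2 ratio of 8.32, with its host P_XLOC_010804 at 12.3 and 10.4 FPKM. P_XLOC_027449 on chromosome 5 (22828439 to 22828681, plus strand, 243 bp), a free-standing locus, stood at 1.45 and 747 FPKM. P_XLOC_020091 on chromosome 3 (28850820 to 28850975, plus strand, 156 bp) stood at 6507 FPKM in milk grains and 21.3 in mature seeds, a log2 ratio of -8.19, and at 1242 FPKM or more in the other 6 libraries. Its host P_XLOC_020090 stood at 36.8 and 5.51 FPKM. M_XLOC_038423 on chromosome 8 (26747398 to 26747685, minus strand, 288 bp) stood at 4641 and 37.0 FPKM, while its host M_XLOC_038422 stood higher in mature seeds, at 280 against 78.2 FPKM.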

How the data were processed

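The deposited table gives FPKM values made by the authors for 41805 loci and 8 libraries. Per the submitters' processing notes the tools were TopHat, Cufflinks and Cuffdiff. The sources used here give no versions, settings or effective lengths. Libraries were sequenced for 100 cycles, per the labels' protocols. Positions are those of MSU Release 7, per the file headers. The shortest length is 101 bp. Whether starts count from 0 or 1 is not given, so each length may be 1 bp too long. None of the identifiers (0) was found in the reference table of 39387 genes, so no gene name, gene list or sequence is used.

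The step of 1 read was the lowest value at a length divided by the smallest whole number for which values under 60 steps were whole within 0.03, per library and strand at 101 bp, and pooled in units of that step at other lengths. In the library labelled late roots the plus-strand step was a fraction of the lowest value. Minus-strand steps were 7.48% to 10.9% larger than plus-strand steps. Relative depth is the step of mature seeds over that of a library, averaged over strands. Read totals are unknown otherwise. Step finding recovered 100% of 200 simulated steps, each from 20 loci. At the shortest length, minus-strand mature seeds gave only 6 values. The 4-fold counts recovered 97% of 200 simulated 8-fold changes among 1576 short loci. That second simulation held no 0 and no whole-read steps, so it does not cover calls that rest on a 0 or on few reads.

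Ratios use a pseudocount of 1 and loci of at least 1 FPKM, with Python 3.11.15, numpy 2.4.6, pandas 2.3.3 and scipy 1.17.1. A fold change on this scale understates the change of low loci. Hosts are the longer loci with the largest overlap. Loci printed are the 8 highest, the 2 largest and 2 smallest ratios per comparison, the 2 highest enriched per organ, the highest of 101 bp, the 3 highest with a partner, and those at 299 and 300 bp. The short loci and these rules were chosen with earlier results of these data known. Alternatives tried were other pseudocounts, filters, scalings, length limits and overlaps.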

Additional observations from a re-analysis of the deposited data

Results flagged for a closer look

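At some short loci the change after flowering in flag leaves and that in the libraries labelled roots went opposite ways. With the 4-fold limit, 86 of 3681 short loci were lower in late leaves yet higher in the library labelled late roots. Of these 86, 5 were no longer than 106 bp. Another 38 of 3681 were higher in late leaves and lower in the library labelled late roots. Over the 41805 loci of any length the counts were 231 and 184. Among all short loci called between the leaf libraries, 56.5% had a 0 in the lower library. For early roots against the library labelled late roots this share was 63.5%. How many of the 86 and 38 had a 0 was not counted. Each of the 4 libraries is the only one of its group, the difference was not tested, and it rests on the doubted root label.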

How the results depend on the processing

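No paired analysis was possible because each group has 1 library and no result comes from a test. Of 102 alternative values, 67 were the same or, for counts, within 1.5 times of the reported one, and 35 moved. These values carry no sign, so a turned direction shows only in the pairs of higher and lower counts. Among the 67 are the stage counts without the 1 FPKM filter, which could not differ from the reported ones. A 4-fold call with a pseudocount of 1 already needs more than 1 FPKM. The median share of the FPKM sum of 37.2% was 28.1% with a limit of 200 bp and 39.8% with one of 500 bp, 35.9% on the plus and 36.9% on the minus strand, 31.1% without the highest locus, 36.5% without the library labelled late roots and 16.9% without loci of up to 106 bp. With a pseudocount of 0.1, 425 short loci were higher in flowers and 0.380% of short loci enriched in roots. With equal sums, where a pseudocount of 1 weighs more on the divided values, 232 were higher and 183 lower in leaves, 720 higher in the library labelled late roots, 413 higher in mature seeds, 0.0272% of short loci enriched in flag leaves and 0.652% in seeds. The near-even seed counts of 729 higher and 734 lower changed order to 694 and 646 at 5 FPKM, 736 and 725 with median-ratio scaling, 716 and 697 with at least 10 reads where countable, and 711 and 694 without loci of up to 106 bp. Equal sums turned the median log2 ratio of short loci in seeds from 0.23 to -0.26.

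With loci above 0 in both libraries only, an alternative chosen after seeing the data, higher and lower counts were 94 and 106 in flowers, 149 and 143 in late leaves, 299 and 265 in the library labelled late roots and 436 and 87 in seeds. Loci called higher then made up 83.4% of the called seed loci, against 49.8%, and 53.0% against 74.1% in the libraries labelled roots, since loci at 0 in 1 library are left out. Without the library labelled late roots, the shares enriched were 2.74% for flag leaves and 5.54% for roots, against 0.0543% and 0.190%. Without it, in alternatives chosen after seeing the data, 331 short loci were above 0 in a single library, against 220, median r was 0.65 with the host, 0.30 with its nearest other locus, 0.41 with an opposite-strand partner and 0.35 with the nearest locus of those, and the highest library was the same in 50.6%, 31.9%, 36.2% and 33.2% of these pairs. At 5 FPKM, 432 short loci were detected in every library. Median-ratio scaling kept the stage counts of all 4 comparisons within 1.5 times, and the overlap alternatives kept the count of overlapping loci so. Asking for 10 reads where countable and leaving out loci of up to 106 bp also did. Both could act only on 120 loci, too few of the called ones to move a count that far, so this outcome was set in advance. Leaving out loci of up to 106 bp was also run for the share above and for the library of the highest value. For detection at 1 FPKM in every library it gave 772 loci (21.7%). Otherwise these alternatives were not run for other results. Reads could be counted at 120 of 3681 short loci, so counting error is unknown for the others.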

Other observations

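Some short loci formed close groups. The free-standing neighbours M_XLOC_001556 (7228881 to 7228984, 104 bp) and M_XLOC_001557 (7229089 to 7229196, 108 bp) on the minus strand of chromosome 1, noticed after values were seen, were both highest in seeds. M_XLOC_001556 had 20 reads in milk grains (20946 FPKM), 33 in mature seeds (67258 FPKM), 6 in early roots and 0 in both leaf libraries. M_XLOC_001557 stood at 16979 FPKM in milk grains, 37797 in mature seeds and 3246 in early roots. The nearest longer locus on that strand, M_XLOC_001558, lay 1400.0 bp upstream of M_XLOC_001557, was listed at 0 in mature seeds and stood at 1.48 FPKM in milk grains.

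The host with the most short loci was M_XLOC_017395 on chromosome 2 (35460548 to 35478032, minus strand), with 9. It lay between 41.5 FPKM in milk grains and 240 in early leaves. Its short loci had means over the libraries between 6.55 and 3792 FPKM, the highest at M_XLOC_017396 (102 bp), and Pearson r with the host between 0.19 and 0.92 over 8 libraries.

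Above 0 in a single library were 220 short loci (5.98%), against 2.26% of longer loci. Of these, 60 were seen in early roots, 46 in mature seeds, 38 in milk grains, 30 in the library labelled late roots, 23 in flower buds, 11 in early leaves, 10 in flowers and 2 in late leaves. Leaving out the library labelled late roots, 331 short loci (8.99%) and 2.80% of longer loci were above 0 in a single library, and 79 of those short loci were seen in late leaves.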
